A study of Mus musculus with 27 samples.

Results

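A set of 27 genes was all but silent in cultured wild-type hair follicle stem cells (HFSCs) and present in every culture of HFSCs whose retinoid X receptor gene Rxra had been conditionally deleted (Rxra cKO). The genes were picked from the bulk RNA-seq counts of the study: at most 3 reads over the 4 wild-type libraries together, at least 100 over the 4 Rxra cKO libraries, and at least 10 in each of those 4, with Hist, Hox, Col and Krtap symbols left out. They are 27 of 51906 gene symbols in the table, of which 29714 had a read in any library. With the limits exchanged, 0 genes were silent in Rxra cKO and present in wild-type, though 4 were with a sum of up to 10, 4 with limits of 50 and 5, and up to 3 with 1 Rxra cKO library left out. Since the rule used both genotypes in both media, the genotype values below describe the choice and were not tested.

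The study asked how all-trans retinoic acid (atRA), the hormone-like derivative of vitamin A, acts on HFSC fate. Its RNA-seq compared 4 groups of 2 cultures, wild-type or Rxra cKO, grown in fetal bovine serum (FBS) or in atRA+PKCi, a serum-free medium with B-27 supplement, atRA and an inhibitor of protein kinase C (PKCi), so that the change of medium also removed serum. The Rxra cKO mice carried Sox9-CreER, floxed Rxra and the Rosa26-LSL-YFP reporter, the Cre being driven from the Sox9 locus, which is active in HFSCs; all 8 libraries came from mice of postnatal day 55, and the strain that gave the wild-type lines was not given in the sources used here. Lines had been started on growth-arrested feeder cells and kept for at most 10 passages. Labels gave both media cultures of a genotype the same mouse number, so each genotype rested on 2 mice, and genotype, mouse, line and strain cannot be told apart. The genes were then followed in 4 single-cell matrices of wild-type mice: back skin cells at about postnatal day 32, sorted by the authors to remove blood, vessel, fibroblast and KIT-positive cells (AnaVI), and cultured HFSCs, each from 2 mice.

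RXRA is a nuclear receptor. It pairs with the retinoic acid receptors on DNA, and the pair binds repeats of a short hexamer. Without ligand such pairs recruit corepressors to nearby genes, and with atRA they recruit coactivators. HFSCs reside in the bulge of the outer root sheath (ORS) and regrow the follicle in each hair cycle; in culture they keep basal keratins.

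The labels were checked first. In FBS, Rxra itself had 4092 and 3163 reads in wild-type and 2702 and 2954 in Rxra cKO. In atRA+PKCi it had 4595 and 4521 reads in wild-type and 5641 and 3902 in Rxra cKO. The gene was lower in Rxra cKO than in wild-type in FBS (log2 fold change −0.49, edgeR adjusted p = 0.00264) and not called in atRA+PKCi (0.01, adjusted p = 0.927). These totals per gene do not resolve the deleted part of the gene, so they do not check the label. Library totals lay between 25150162 and 35879630 reads. Summed levels of 9 epithelial markers, among them Krt5 and Krt14, lay between 22123 and 32692 CPM (reads of a gene scaled to a library of 1000000 reads) in all libraries. Krt5 and Krt14 carry most of that sum. In Rxra cKO in FBS, 6 of the 9 were lower and 1 higher, against 20.5% and 22.3% of all genes. In atRA+PKCi, 5 were lower and 2 higher, against 20.2% and 23%. The 2 were Krt5 (log2 fold change 0.42) and Krt14 (1.00). Krt15, a keratin of the bulge, had 3.65 and 4.75 normalized CPM in wild-type FBS and 6.51 and 8.23 in Rxra cKO FBS, but 4576 and 4430 in wild-type atRA+PKCi against 251 and 245 in Rxra cKO (log2 fold change −4.18, edgeR adjusted p = 1.15e-07). Sox9 (−0.36 and −0.87) and Itga6 (−0.84 and −1.07) were lower in both media. Sums of 5 immune markers did not exceed 1.98 CPM. Sums of 8 fibroblast or feeder markers were 1.42 to 10.8 CPM in wild-type and 4.96 to 8.44 CPM in Rxra cKO. Of these, Lum was at 0 in every library, while Col1a1, Col1a2, Col3a1 and Pdgfra had reads in each. Pdgfra alone was called, and only in atRA+PKCi. There it had 22 and 21 reads in wild-type and 63 and 34 in Rxra cKO (log2 fold change 1.09, edgeR adjusted p = 0.00835). Of the 5 immune markers, Cd74 alone passed the filter, with 0 to 7 reads in wild-type and 4 to 67 in Rxra cKO. Muscle markers summed to 0.546 to 1.84 CPM in wild-type, where Des led, and to 1.09 to 10.2 CPM in Rxra cKO, where Acta1 led. The part of such cells in the values below was not tested. In bulk libraries, fewer cells of a type and less RNA per cell cannot be told apart. The X-linked gene Xist had 14145 to 39957 reads in wild-type and 11476 to 22717 in Rxra cKO. It was higher in Rxra cKO in FBS (log2 fold change 0.41, edgeR adjusted p = 0.0342) and lower in atRA+PKCi (−1.35, adjusted p = 7.48e-05). The Y-linked genes Ddx3y, Uty, Kdm5d and Eif2s3y had 0 to 5 reads per library.

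The 27 genes were 23 protein-coding genes, 3 lincRNAs (5930412G12Rik, D130017N08Rik and Gm44275) and the T cell receptor constant gene Trbc2. Promoter sequences of 20 of them were in the RefSeq table for GRCm38.p6. Because methylation of CpG dinucleotides is a known way of keeping genes silent, the 250 bases before the start site are printed below for 4 members of low and high CpG content whose RefSeq and GENCODE starts lie within 10 bases of each other, with each CpG in capitals. Cd59a, at chr2:104095551-104095800 on the plus strand, had 0 CpGs. Armcx6, at chrX:134751420-134751669 on the minus strand, had 8. Dcaf12l1, at chrX:44790198-44790447 on the minus strand, had 6. Fam19a5, listed by RefSeq as Tafa5, at chr15:87544049-87544298 on the plus strand, had 48.
Cd59a: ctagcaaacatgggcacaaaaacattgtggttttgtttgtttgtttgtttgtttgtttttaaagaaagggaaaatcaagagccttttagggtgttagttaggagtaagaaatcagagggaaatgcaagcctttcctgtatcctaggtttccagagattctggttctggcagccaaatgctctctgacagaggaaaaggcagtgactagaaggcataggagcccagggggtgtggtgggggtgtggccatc
Armcx6: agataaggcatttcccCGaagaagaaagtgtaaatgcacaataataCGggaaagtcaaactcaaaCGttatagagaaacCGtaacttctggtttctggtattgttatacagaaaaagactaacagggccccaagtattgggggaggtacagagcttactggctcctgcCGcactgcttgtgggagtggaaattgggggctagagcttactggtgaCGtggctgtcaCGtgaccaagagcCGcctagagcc
Dcaf12l1: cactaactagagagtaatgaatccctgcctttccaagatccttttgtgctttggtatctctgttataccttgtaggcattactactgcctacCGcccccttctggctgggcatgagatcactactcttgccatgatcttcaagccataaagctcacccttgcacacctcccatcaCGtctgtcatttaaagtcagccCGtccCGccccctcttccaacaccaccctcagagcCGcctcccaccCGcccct
Fam19a5: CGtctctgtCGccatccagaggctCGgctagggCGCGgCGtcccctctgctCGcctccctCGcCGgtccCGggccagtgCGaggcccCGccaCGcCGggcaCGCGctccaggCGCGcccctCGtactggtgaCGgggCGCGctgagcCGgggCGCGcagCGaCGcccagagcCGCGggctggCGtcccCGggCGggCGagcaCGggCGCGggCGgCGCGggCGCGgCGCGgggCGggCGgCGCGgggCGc

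Of the 20 RefSeq starts, 11 lay within 10 bases of the GENCODE start, and all 20 were used here. Over all 20 promoters, taken as 300 bases from 250 before to 50 after the RefSeq start, the median ratio of observed to expected CpGs was 0.59, against 0.756 for 10629 promoters of genes that passed the count filter and 0.389 for 27025 promoters in all. The members thus lay between the set of genes used in these cultures and the set of all genes. A ratio of 0.6 or more was reached by 10 of 20 (50%), against 70.3% of tested and 36.5% of all promoters. Searched on both strands, the retinoid receptor hexamer (AGGTCA or GGGTCA) was found in 4 members, namely 1500009L16Rik, Cldn7, Slc25a21 and Tmsb15b2 (20.0%, against 24.0% of tested and 27.2% of all promoters). TATAAA was found in Pbp2 alone (5.00%, against 7.39% and 14.2%). The AP-1 motif TGANTCA was found in 0 members, against 5.55% and 7.93%. Overlaps between motifs were not removed, and such matches describe letters in this window and no binding. Cyp7b1, Nme5, 5930412G12Rik, Rsph1, A630001G21Rik, Gm44275 and Trbc2 had no entry.

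The members together had 5, 6, 8 and 13 reads in the 4 wild-type libraries and 2491, 2702, 3609 and 2749 in the 4 Rxra cKO libraries, or 84.1 to 109 CPM. Of the 27, 9 had no read at all in 118582557 wild-type reads, which allows up to 3 reads or 0.0253 CPM, 8 had 1 read, 6 had 2 and 4 had 3. Intervals and floors of this kind cover counting error only. In Rxra cKO their sums ran from 100 (D130017N08Rik) to 2110 (Sdr39u1) with a median of 187. Per kilobase of exon the Rxra cKO level ran from 0.0899 CPM (Slc7a14, a lysosomal transporter family member) to 8.54 CPM (Trbc2), with a median of 0.918. Among all genes tested, 12.4% were called higher in Rxra cKO in both media; for the members that call follows from the rule.

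**Figure D1:**
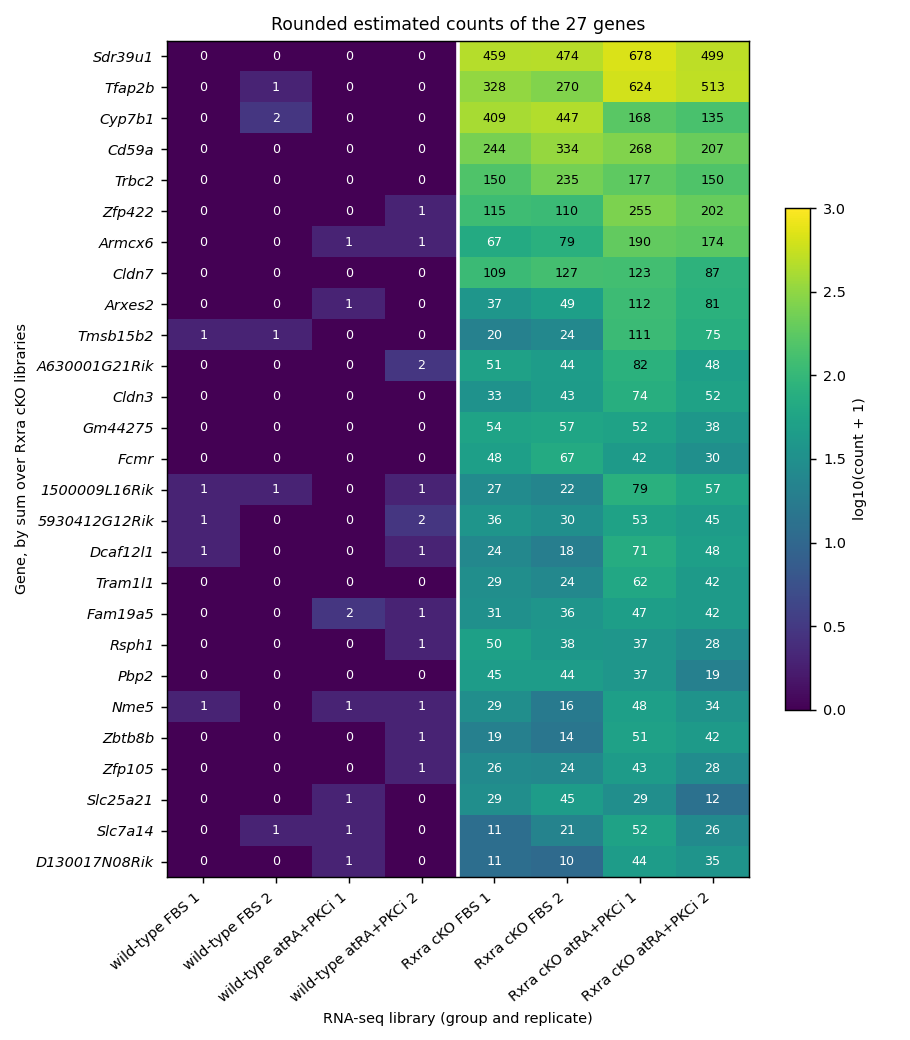
Rounded read counts of the 27 genes (rows, ordered by their Rxra cKO sum) in each of the 8 RNA-seq libraries (columns), printed in the cells and colored by log10 of count + 1. Wild-type cells hold 0 to 2 reads and Rxra cKO cells 10 or more, up to 678 for Sdr39u1.

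Transcription factor and zinc finger genes were 4 of the members. Tfap2b, an AP-2 factor of ectoderm and neural crest, had 0, 1, 0 and 0 reads in wild-type (2 FBS libraries, then 2 atRA+PKCi libraries, the order used throughout) and 328, 270, 624 and 513 in Rxra cKO. The ratio was 1704 and its 95% interval from counting ran from 305 to 67348. The related AP-2 genes were read in both genotypes: Tfap2a had 1497 to 3373 reads in wild-type and 1594 to 2310 in Rxra cKO, and Tfap2c 881 to 1378 and 600 to 893. Zfp422, a zinc finger gene, had 0, 0, 0 and 1 reads against 115, 110, 255 and 202 (ratio 670, 120 to 26497), and shares 29.3% of its 31-base words with other genes, mostly Zfp955b. Zfp105 and Zbtb8b, also of the zinc finger class, were scarcer. They had 1 wild-type read each, 121 and 126 reads over the Rxra cKO libraries and 0.47 and 0.162 CPM per kilobase there.

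Surface and junction genes formed the next group. Cd59a, the membrane-bound inhibitor of complement, had no wild-type read and 244, 334, 268 and 207 reads in Rxra cKO, at least 345-fold higher. Its neighbor and close relative Cd59b, 4614 bases away, had 1 to 9 reads in wild-type and 7 to 17 in Rxra cKO and was not called in either medium. Cldn7 and Cldn3, claudins of the tight junctions of simple epithelia, had no wild-type read and 109, 127, 123 and 87 reads and 33, 43, 74 and 52 reads, at least 146-fold and at least 66.1-fold higher. Other claudins were read in both genotypes. Cldn4 lies 39280 bases from Cldn3 and had 2977 to 4131 reads in wild-type and 5447 to 8394 in Rxra cKO. Cldn1, a claudin of the epidermal barrier, had 403, 435, 48 and 52 reads against 3070, 4272, 1907 and 1490. Fcmr, the Fc receptor for IgM, had no wild-type read and 48, 67, 42 and 30 reads in Rxra cKO, at least 61.2-fold higher.

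Enzyme, carrier and lipid-binding genes were 5 of the members. Sdr39u1, a short-chain dehydrogenase/reductase family gene, held the highest counts, with no read in any wild-type library and 459, 474, 678 and 499 in Rxra cKO, at least 691-fold higher. It shares 43.3% of its 31-base words with other genes, mostly Khnyn, which overlaps it on the other strand and had 1652 reads in wild-type and 1458 in Rxra cKO, so how the counting divided their reads is uncertain. Cyp7b1, the oxysterol 7-alpha-hydroxylase, had 0, 2, 0 and 0 reads in wild-type and 409, 447, 168 and 135 in Rxra cKO (ratio 569, 157 to 4706); the related bile acid enzyme gene Cyp7a1 had 0 in every library. Slc25a21, the mitochondrial oxodicarboxylate carrier, was low, with 29, 45, 29 and 12 reads in Rxra cKO, and lies over Pax9 on the other strand (708 reads in wild-type, 214 in Rxra cKO). Slc7a14 (11, 21, 52 and 26 reads) was the sparsest of the 27 for its length. Pbp2, a phosphatidylethanolamine-binding protein gene, had 45, 44, 37 and 19 reads and no wild-type read.

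Some coding members are known from other cell types. Trbc2, a constant region of the T cell receptor, had no read in wild-type and 150, 235, 177 and 150 in Rxra cKO, at least 233-fold higher, while Cd3e, which T cells need to carry that receptor, stood in the immune list whose sum did not exceed 1.98 CPM. Trbc2 shares 48.5% of its words with other genes, mostly Trbc1, which had 0 to 4 reads per library in both genotypes. Nme5 and Rsph1, genes of cilia and flagella, had 29, 16, 48 and 34 reads and 50, 38, 37 and 28 reads in Rxra cKO. Fam19a5, a secreted chemokine-like protein of the nervous system, had 31, 36, 47 and 42. The remaining members outside the X chromosome had no more than 3 wild-type reads by the rule and modest counts. Tram1l1, a relative of a translocon-associated protein gene, had 29, 24, 62 and 42 reads in Rxra cKO, and the coding genes 1500009L16Rik and A630001G21Rik 27, 22, 79 and 57 and 51, 44, 82 and 48. The lincRNAs 5930412G12Rik, D130017N08Rik and Gm44275 had 36, 30, 53 and 45, then 11, 10, 44 and 35, then 54, 57, 52 and 38. Of a list of 16 germline genes, 1 passed the count filter and was called in neither medium. Of 16 imprinted genes, 12 passed. In Rxra cKO, 5 were higher and 4 lower in FBS, against 22.3% and 20.5% of all genes. In atRA+PKCi, 4 were higher and 5 lower, against 23% and 20.2%. Grb10 (4.53 and 3.83) and Ndn (2.10 and 2.91) were among those higher in both, and Dlk1 (−2.50 and −1.68) and Igf2 (−0.82 and −1.18) were lower in both.

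The values beside the limits were as follows. Just outside the wild-type limit, S100a1 and Nmral1 had 4 wild-type reads each and 1094 and 618 in Rxra cKO; just inside, 1500009L16Rik, 5930412G12Rik and Fam19a5 had 3 and 185, 164 and 156. At the other limit, Msl3l2, Dnajb3 and Heph fell short with 98, 84 and 78 Rxra cKO reads, and D130017N08Rik, Slc7a14 and Slc25a21 were inside with 100, 110 and 115. Gm16685, Clec2f and Vcam1 failed in their lowest Rxra cKO library, at 8, 7 and 4 reads.

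Positions were read from GENCODE M21 (GRCm38). The members lay on 15 chromosomes and the only pair within 500 kb of each other was Pbp2 and Gm44275 on chromosome 6, 1750 bases apart. On the X chromosome lay 4 members (14.8%), namely Armcx6, Arxes2, Tmsb15b2 and Dcaf12l1, against 3.53% of tested genes. Within 10 Mb of the engineered loci there was no member at Rxra or Sox9, and 1, Zfp422, at Gt(ROSA)26Sor, the home of the YFP reporter, 3.55 Mb away. That window holds 0.712% of tested genes.

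Some neighbors followed and others did not. Within 100 kb of 24 members lay 85 other tested genes, of which 21 (24.7%) were higher in Rxra cKO in both media, against 12.4% of all genes tested, and 7 (8.24%) were lower in both, against 9.48%. The 21 lay beside 10 of the members. Fzd10, a Wnt receptor gene 151 bases from the lincRNA 5930412G12Rik, had 62 reads over wild-type and 1024 over Rxra cKO (log2 fold change 4.25 ± 0.26 SE in FBS, edgeR adjusted p = 5.76e-06, and 3.84 ± 0.22 in atRA+PKCi, adjusted p = 2.87e-06). Sp100 and Sp140, nuclear body genes beside A630001G21Rik, had 9 and 79 wild-type reads against 298 and 1750 and were higher in both media. Beside Cd59a, in contrast, Fbxo3 was slightly lower in both media (−0.22 and −0.21, edgeR adjusted p = 0.0166 and 0.0195). Beside Cldn7, the GTPase-activating gene Acap1 was lower in both (−2.46 and −2.60), while Dlg4 (203 reads over wild-type, 952 over Rxra cKO) was among the 21.

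The stretch of the X chromosome from Armcx6 to Tmsb15b2 was examined after the positions of the members were seen. It is 2.23 Mb long and holds 3 members and 18 other tested genes. Of the 18, 10 (55.6%) were higher in Rxra cKO in both media and 0 were lower. Of the 546 tested X-linked genes that are not members, a set that includes the 18, 15.8% were higher and 5.49% lower. The median log2 fold change of the 18 was 1.89 in FBS and 1.78 in atRA+PKCi, against 0.10 and 0.00 for the 546. Genes of the Armcx, Bex and Tceal families, small X-linked families that grew by copying within mammals, fill this stretch.

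Bhlhb9, an armadillo-repeat gene of the same region, had 1, 0, 4 and 3 reads in wild-type and 432, 466, 785 and 550 in Rxra cKO, missing the limit for members by its wild-type sum of 8. Armcx3, 5178 bases from Armcx6, had 37 to 54 reads against 580 to 827 (log2 fold change 3.70 ± 0.12 SE in FBS, edgeR adjusted p = 2.34e-07). Tceal8 rose from 806 to 1090 reads in wild-type to 2463 to 4011 in Rxra cKO. The stretch did not move as a whole: Gprasp1 (1888 reads over wild-type, 1750 over Rxra cKO) and Armcx5 (699 and 835) were called in neither medium. Among the members here, Armcx6, an armadillo-repeat gene, had 0, 0, 1 and 1 reads against 67, 79, 190 and 174 (ratio 250, 69.0 to 2074), Arxes2, a retrogene, 0, 0, 1 and 0 against 37, 49, 112 and 81, and Tmsb15b2, a beta-thymosin, 1, 1, 0 and 0 against 20, 24, 111 and 75. Dcaf12l1, the X-linked member elsewhere on the chromosome, had 1, 0, 0 and 1 against 24, 18, 71 and 48. Tmsb15b2 shares 80.2% of its words with other genes, mostly Tmsb15l, and Arxes2 42.1%, mostly with Arxes1, so that their counts and those of their copies are uncertain. The genotype values of Tmsb15l (17 and 306 reads) and Tmsb15b1 (11 and 147) may hold reads of Tmsb15b2 for the same reason. Both are counted above among the raised genes of this stretch and among the raised neighbors within 100 kb, so those counts rest in part on them.

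**Figure D2:**
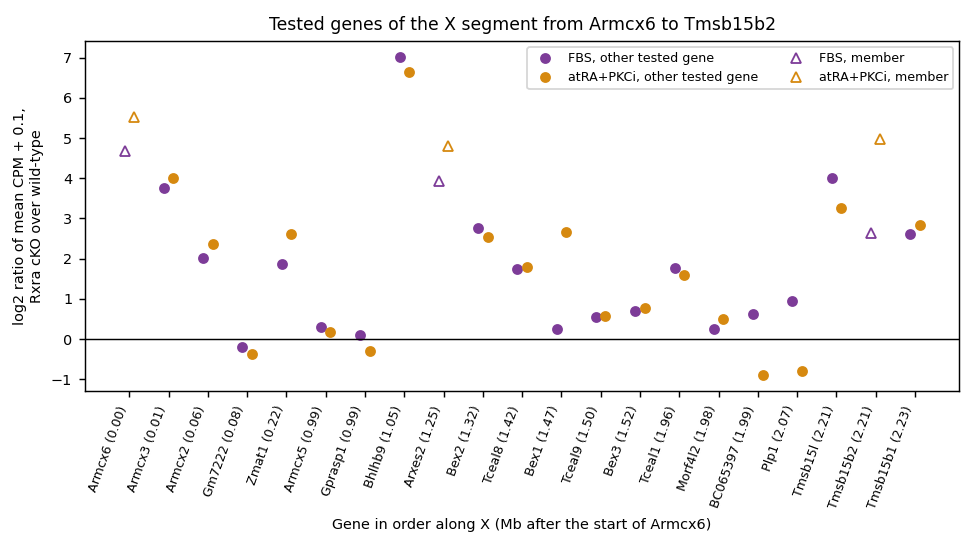
Log2 ratio of Rxra cKO to wild-type CPM (0.1 CPM added to each) in FBS and atRA+PKCi for the 3 members (triangles) and 18 other tested genes (dots) of the X-linked stretch, in their order along the chromosome with the distance in Mb from the start of Armcx6 beside each name. Bhlhb9 at 1.05 Mb is highest at 7.02 and 6.65, and Gm7222, Gprasp1 and Armcx5 lie near 0 between genes that are raised.

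Genes with a part in silencing and in the retinoid response were read beside the members. Of 18 genes for DNA methylation and histone-modifying enzymes and corepressors, 2 were higher and 4 lower in Rxra cKO in FBS, and 1 higher and 6 lower in atRA+PKCi, against 22.3% and 20.5% of all genes in FBS and 23% and 20.2% in atRA+PKCi. Hdac1, a histone deacetylase gene near Zbtb8b, was the list member higher in both (0.29 and 0.36, edgeR adjusted p = 0.00562 and 0.00164). Ehmt1, a histone H3 methyltransferase gene, was lower in both (−0.42 and −0.40, adjusted p = 0.00309 and 0.00320). Tet2, a 5-methylcytosine dioxygenase, was lower in both (−0.93 and −0.93, edgeR adjusted p = 0.000134 and 0.000123). The DNA methyltransferase gene Dnmt3a was lower in FBS (−0.83, adjusted p = 0.00162) and not called in atRA+PKCi (−0.30, adjusted p = 0.114), and Ezh2, the methyltransferase of histone H3 in Polycomb complexes, was lower in atRA+PKCi (−0.58, adjusted p = 0.00146). Of 5 retinoid receptor genes tested, Rara was higher in both media (0.64 and 0.62), 3 were lower in FBS and 1 in atRA+PKCi.

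The rule did not compare the media within Rxra cKO, and here the members were tested. It did set limits on these same 4 libraries, at least 10 reads in each and 100 over all. Genes near zero in any 1 of them were thus left out, which shapes the medium changes that members can show. The shares of all genes, which met no such limit, are given only beside them. All 27 passed the count filter, which they did through the Rxra cKO libraries alone. In atRA+PKCi, 9 of 27 were higher than in FBS and 1 was lower by edgeR (adjusted p under 0.05 over 15965 genes), while 20.8% of all tested genes were higher and 22.2% lower. Markers of other cell types moved between the same libraries. Acta1 rose from 0.863 and 1.26 to 8.28 and 8.20 normalized CPM (log2 fold change 2.94, edgeR adjusted p = 2.76e-05) and Cd74 from 0.144 and 0.259 to 1.75 and 1.56 (3.01, adjusted p = 0.00112), and their part in the members' changes was not tested. The median log2 fold change was 0.43 for the members and 0.02 for all genes. Both atRA+PKCi libraries lay above both FBS libraries for 17 members and below them for 8, against 38.5% and 36.7% of all genes tested. These p-values rest on 2 libraries a group, which measure the spread between these cultures.

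**Figure D3:**
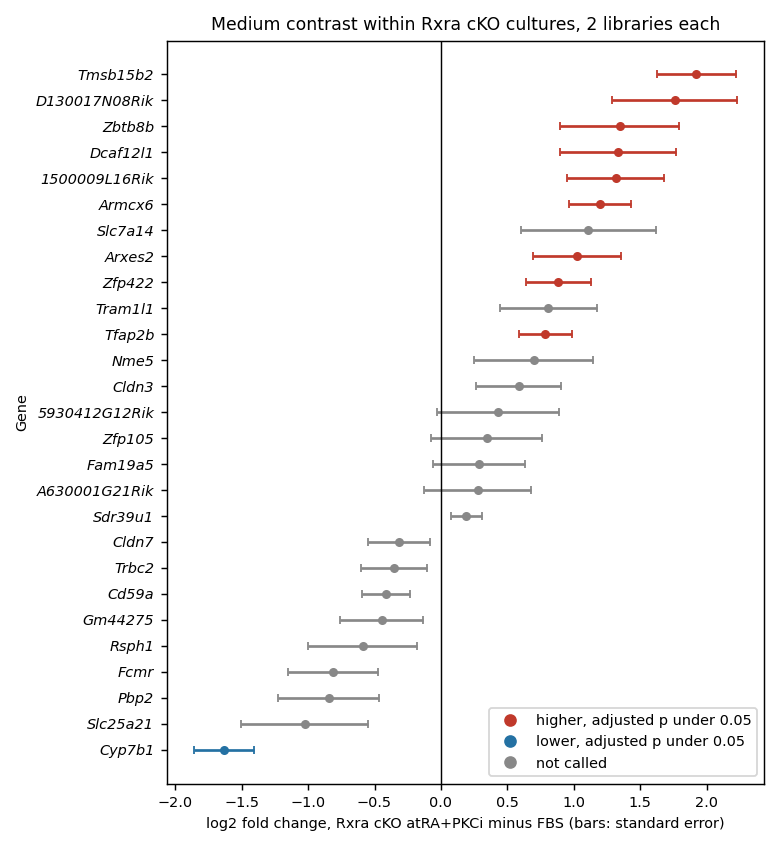
Log2 fold change of each member in atRA+PKCi over FBS within Rxra cKO with its standard error (points and bars, edgeR), red where called higher, blue where called lower and gray where not called. Tmsb15b2 at 1.92 and Cyp7b1 at −1.63 mark the ends, and most members lie above 0.

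The 4 X-linked members were called higher, as were 15.6% of the 546 other tested X-linked genes and 20.8% of all genes. Xist fell in the same contrast, from 776 and 736 to 449 and 427 normalized CPM (−0.79, edgeR adjusted p = 0.00167). Its relation to the rise of these members was not tested. Tmsb15b2 had 0.719 and 0.777 normalized CPM in Rxra cKO FBS and 2.91 and 2.79 in atRA+PKCi, a log2 fold change of 1.92 ± 0.30 SE (edgeR adjusted p = 0.00142). Armcx6 rose from 2.41 and 2.56 to 4.98 and 6.48 normalized CPM (1.20 ± 0.23, adjusted p = 0.00451). The 2 groups of libraries were well apart for both genes. Without the second Rxra cKO atRA+PKCi library Armcx6 was not called (adjusted p = 0.0537). Arxes2 rose from 1.33 and 1.59 to 2.93 and 3.02 (1.02 ± 0.33, adjusted p = 0.0383). Dcaf12l1, a relative of the ubiquitin ligase adaptor gene Dcaf12, rose from 0.863 and 0.583 to 1.86 and 1.79 (1.34 ± 0.44, adjusted p = 0.0360). With the mouse number as a replicate block Dcaf12l1 was not called (adjusted p = 0.0683). Neither Arxes2 nor Dcaf12l1 was called with DESeq2 (adjusted p = 0.161 and 0.166) or when any 1 of the 4 Rxra cKO libraries was left out.

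Among the transcription factor and zinc finger genes, grouped here by their known class, the values were as follows. Tfap2b had 11.8 and 8.74 normalized CPM in FBS and 16.3 and 19.1 in atRA+PKCi (0.79 ± 0.20, edgeR adjusted p = 0.0140). Zfp422 had 4.14 and 3.56 against 6.68 and 7.52 (0.88 ± 0.24, adjusted p = 0.0216). Tfap2b was not called without the second library of either medium, and Zfp422 lost its call when any 1 of the 4 Rxra cKO libraries was left out. Zbtb8b had 0.683 and 0.453 against 1.34 and 1.56 (1.35 ± 0.45, adjusted p = 0.0432), and it was not called with the replicate block (adjusted p = 0.0654), with DESeq2 (adjusted p = 0.233) or when any 1 Rxra cKO library was left out. Zfp105 was at 0.935 and 0.777 against 1.13 and 1.04 (0.34 ± 0.42, adjusted p = 0.549). The lincRNA D130017N08Rik rose from 0.396 and 0.324 to 1.15 and 1.30 (1.76 ± 0.47, adjusted p = 0.0188), a call lost when any 1 Rxra cKO library was left out. The coding gene 1500009L16Rik rose from 0.971 and 0.713 to 2.07 and 2.12 (1.32 ± 0.36, adjusted p = 0.0181), a call lost when any of 3 of the 4 was left out.

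Cyp7b1 went the other way. It had 14.7 and 14.5 normalized CPM in FBS and 4.40 and 5.03 in atRA+PKCi, a fall by 1.63 ± 0.23 on the log2 scale (edgeR adjusted p = 0.000847). Members of the surface group did not pass the test. Cd59a had 8.77 and 10.8 against 7.02 and 7.71 (−0.41 ± 0.18, adjusted p = 0.115), Cldn7 3.92 and 4.11 against 3.22 and 3.24 (−0.31 ± 0.23, adjusted p = 0.327), and Cldn3 1.19 and 1.39 against 1.94 and 1.94 (0.58 ± 0.32, adjusted p = 0.191). Sdr39u1 was not called, with 16.5 and 15.4 against 17.8 and 18.6 (0.19 ± 0.12, adjusted p = 0.242), and Trbc2 overlapped between media (5.39 and 7.61 against 4.64 and 5.59). The number called depended on single cultures: without the second Rxra cKO atRA+PKCi library 1 member, Tmsb15b2, was still called higher, and without the second FBS library 2 were.

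The genes were not silent in wild-type mice. In back skin, all 27 had at least 10 UMIs (unique molecular identifiers, 1 for each molecule read) in each of the matrices, which hold 145318618 and 167258677 UMIs. Tfap2b was highest at 101 and 93.1 CPM, here UMIs scaled to a matrix of 1000000 UMIs, in mouse 1 and mouse 2. Cyp7b1 followed at 56.8 and 35.1, 5930412G12Rik at 32.6 and 22.1, Cd59a at 27.1 and 29.1, Zfp422 at 20.0 and 18.0 and Sdr39u1 at 10.5 and 7.71. Pbp2 was lowest at 0.110 and 0.143. The mice ranked these genes alike apart from the close pair 5930412G12Rik and Cd59a. Pbp2 passed with 16 and 24 UMIs, and the share of all genes that reach 10 UMIs at this depth was not computed.

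In culture most were near zero again. The matrices of cultured HFSCs are small (449 and 208 barcodes, 11663442 and 4112464 UMIs), and by their hashtag oligos few of those cells came from the media of the bulk libraries: 1 and 0 from FBS, 2 and 1 from atRA+PKCi, against 122 and 14 from medium with BMP and 102 and 35 with Rspo and BMP. Over both matrices, 8 members had no UMI (Armcx6, Arxes2, Cldn7, Dcaf12l1, Pbp2, Tram1l1, Zfp105 and Zfp422), 9 had 1 to 3 and 10 had more. Tfap2b had 1 UMI and Cyp7b1 3. The same split was not computed for all genes, and these matrices hold far fewer UMIs than those of skin. For scarce genes such as Pbp2 a lower level was not detectable at this depth, since 3 UMIs stand for 0.257 and 0.729 CPM. Sdr39u1 was the exception, with 166 and 68 UMIs, or 14.2 and 16.5 CPM, followed by Trbc2 with 31 and 22, Tmsb15b2 with 16 and 9, Nme5 with 6 and 11 and Zbtb8b with 9 and 5. Sdr39u1 thus had no read in 4 wild-type bulk libraries and many UMIs in wild-type cultured cells; the assays differ in how reads are placed on it and Khnyn, and that was not tested.

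**Figure D4:**
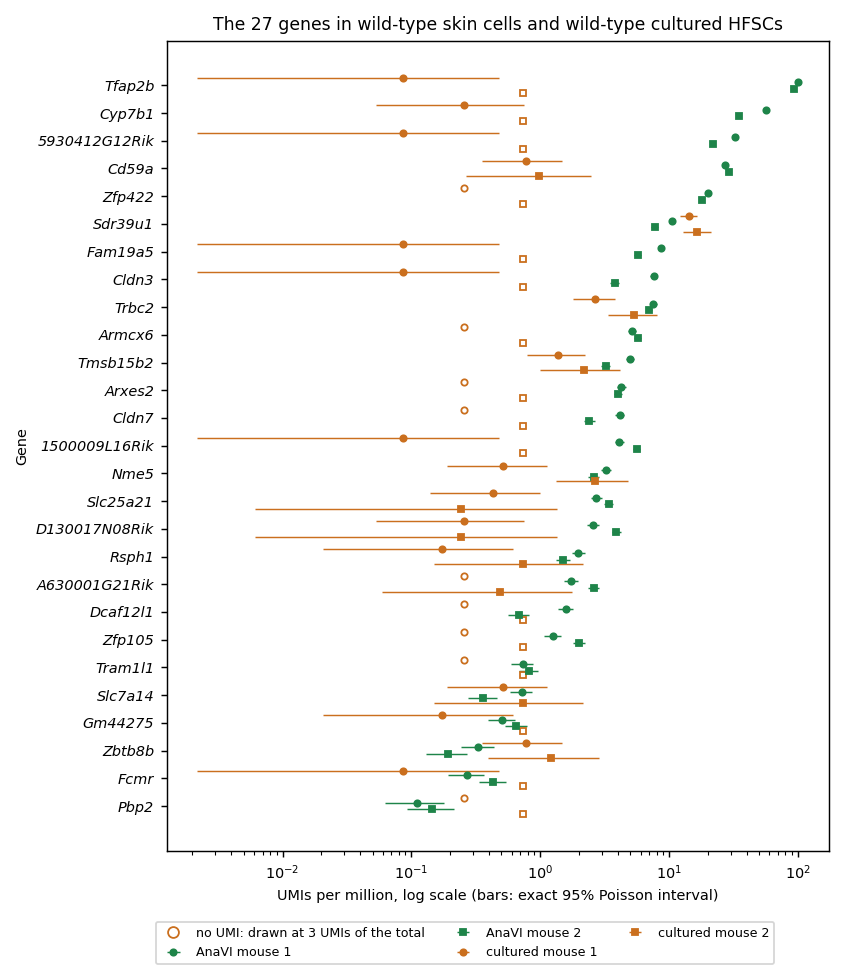
CPM of each member (log axis) in the back skin matrices and the cultured HFSC matrices of 2 wild-type mice, with exact Poisson 95% intervals as bars and open points at 3 UMIs of the total where no UMI was read. All 27 genes have skin values in both mice, while 8 have no UMI in either culture and Sdr39u1 stands at 14.2 and 16.5.

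Cells of the ORS or bulge, the source of HFSCs, were set beside the cultures. Clusters were named ORS or bulge-like from Krt5, Krt14, Sox9, Lgr5, Krt15, Cd34 and Postn, and held 598 and 602 cells. For 13 members the culture value lay below the ORS-like value with exact Poisson intervals apart in both mice, for 0 it lay above, and for 14 the intervals met in at least 1 mouse. The share of all genes in each of these groups was not computed. The rule had also asked for few reads in wild-type bulk cultures, so these counts are not read as a trait of the members. Tfap2b was at 121 and 137 CPM in ORS-like cells and 0.0857 and 0 in culture. Cd59a was at 114 and 96.4 against 0.772 and 0.973, and Zfp422 at 21.3 and 26.1 against 0 and 0. Trbc2 was at 65.0 and 56.4 against 2.66 and 5.35, and Armcx6 at 14.7 and 9.40 against 0 and 0. Sdr39u1 had intervals that met, at 13.8 and 14.5 against 14.2 and 16.5. Other members were near zero in ORS-like cells as well. Pbp2 and Gm44275 had 0 and 0 UMIs there, Fcmr 0 and 1, Cldn7 1 and 0, and Slc7a14 1 and 1. Slc25a21 had 1 and 2, Rsph1 2 and 1, Tram1l1 3 and 0 and Dcaf12l1 3 and 2. Free RNA of other cells was not removed from these matrices, and intervals over UMIs of 1 mouse do not measure the spread between mice.

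Outside the ORS the members were spread over many kinds of skin cell, although the sort was set against CD45-, CD31-, CD140a- and CD117-positive cells, so that immune, vessel and mesenchymal groups are cells that passed it. For 10 members the cell group with the highest level was a named class, for 17 a cluster without a name here, given by its leading gene, and 18 of the 27 were led by the same group in both mice. Dermal papilla-like cells, the signaling mesenchyme at the follicle base, led 5: Slc25a21 (24.5 and 20.3 CPM), Dcaf12l1 (13.2 and 11.02), Tram1l1 (11.3 and 11.02), D130017N08Rik (10.4 and 14.8) and Zfp105 (6.12 and 8.99). Schwann-like cells, the glia of skin nerves, led Cd59a (312 and 408) and Fam19a5 (92.5 and 108). Mural-like cells led 1500009L16Rik (54.5 and 57.8), and mural-like and fibroblast-like cells were close for Cyp7b1 (129 and 77.0, and 132 and 72.5).

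Other groups led further members. Tfap2b was highest in a cluster led by Cdh6 (356 and 325 CPM). Cldn3 was highest in a cluster led by the milk casein gene Csn1s1 (584 and 358) and next in a cluster led by Wfdc2 (418 and 288), which also led Cldn7 (265 and 228). Trbc2 stood at 65.0 and 56.4 in ORS-like cells, 67.1 and 41.2 in interfollicular-like cells and 62.8 and 53.4 in a cluster led by Grm7, and no group led in both mice. It was at 49.98 and 33.9 in immune-like cells. Fcmr was highest in a cluster led by the B cell gene Cd79a (129 and 157), with endothelial-like cells next at 5.64 and 0, and the same cluster led A630001G21Rik (53.5 and 127). The neighbors Pbp2 and Gm44275 shared their leading groups: a cluster led by Clic5 (4.73 and 5.04 for Pbp2, 19.9 and 25.2 for Gm44275) and then dermal papilla-like cells (2.83 and 2.90, and 13.7 and 11.3).

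**Figure D5:**
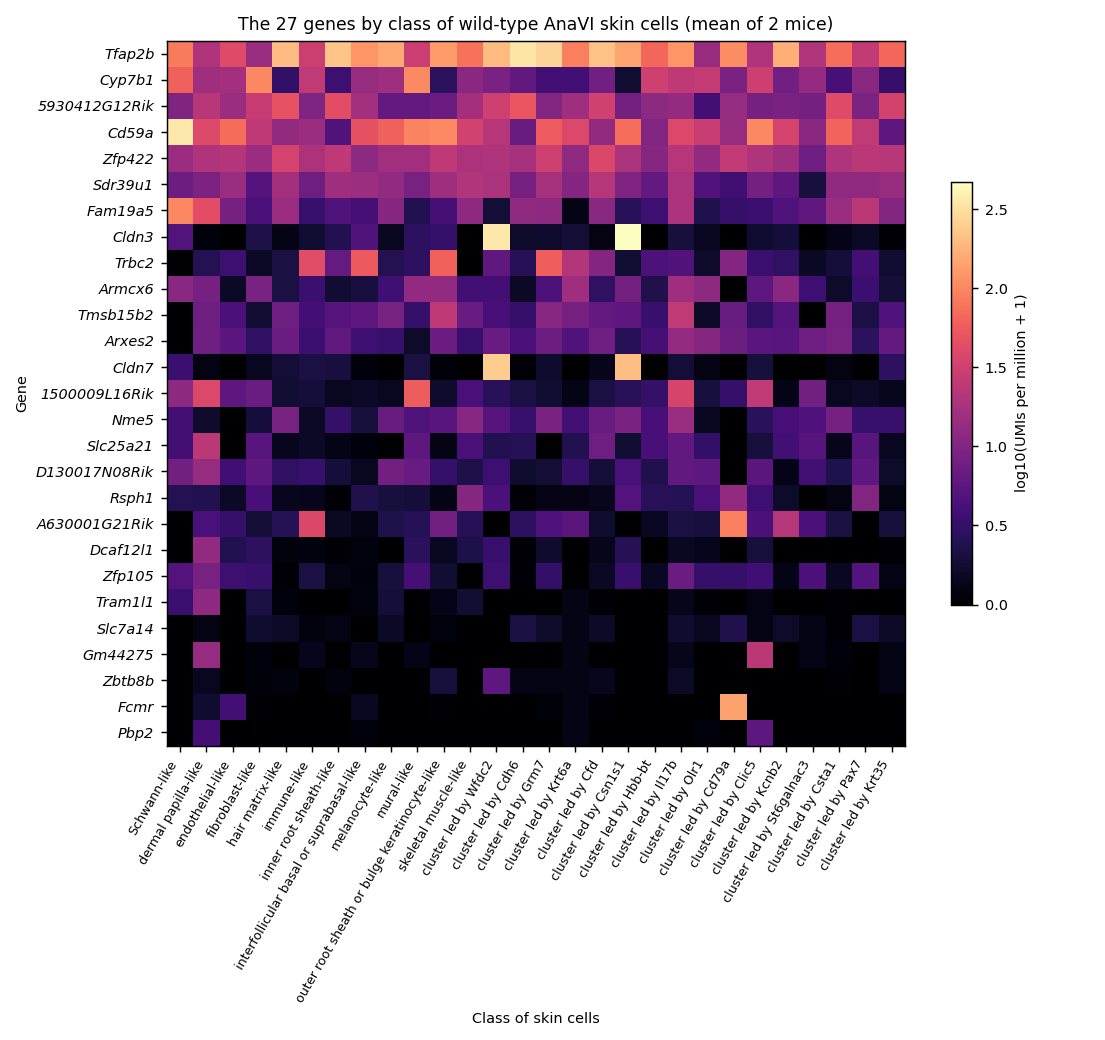
UMI levels of the 27 members (rows) in the cell groups of wild-type back skin (columns), as log10 of the mean CPM of 2 mice + 1. Tfap2b, Zfp422, Cd59a and 5930412G12Rik are among the members with a signal in every column. Fcmr stands out in the cluster led by Cd79a, and Cldn3 and Cldn7 in those led by Csn1s1 and Wfdc2.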

How the data were processed

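Genes and lists were chosen with earlier results of these data known. For the 8 RNA-seq libraries the authors deposited estimated counts per gene, made with salmon 1.4.0 and tximport on mouse transcripts and not normalized; these were rounded to whole reads. The authors also deposited a table of normalized signal per gene, used only in alternatives. Single-cell values are UMI counts that the authors deposited after Cell Ranger 7.0.1. ATAC-seq (8) and CUT&RUN (5) samples were not analysed here. Symbols were matched to GENCODE M21.

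Genes kept by filterByExpr (15965) were fitted with edgeR 4.0.16 in R 4.3.3 (TMM, quasi-likelihood test, 4 group means, 8 libraries, Benjamini-Hochberg adjustment over all genes), after a run on simulated data; standard errors were the fold change over the root of its F statistic; DESeq2 1.42.0 and limma 3.58.1 were alternatives. TMM factors lay between 0.883 and 1.08. Mean chi-square per gene between replicates was 5.79 to 26.5, above counting error. The labels give both media of a mouse the same number; deviations of same-numbered libraries correlated weakly (wild-type 0.0668, Rxra cKO −0.0188), and the fit was not blocked. Named genes are all 27 members, and neighbors and relatives by position or family. Genes outside these sets were named after their values were seen.

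Cells with at least 500 genes, 1000 UMIs and under 10% mitochondrial UMIs were kept (14458 and 13915 in skin), Scrublet doublets removed (5.96% and 3.41%), and clusters made in scanpy 1.11.5 (2000 variable genes, 30 components, resolution 1, seed 11). Barcodes shared between the skin matrices numbered 62. Levels per matrix used all barcodes. Cluster names are rebuilt, not the authors'.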

Additional observations from a re-analysis of the deposited data

How the results depend on the processing

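The number of members followed its limits: it was 9 with no wild-type read allowed, 74 with up to 10, 52 with Rxra cKO limits of 50 and 5, 13 with limits of 200 and 20, and 19 to 41 when 1 library at a time was left out (41 without the second wild-type atRA+PKCi library). It was 26 without rounding, 23 on the normalized table and 27 with no symbol left out.

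The 9 members called higher in atRA+PKCi became 2 at adjusted p under 0.01 and absolute log2 fold change over 1, 4 with DESeq2, and 2 and 1 with limma on normalized counts at pseudocounts of 1 and 0.5 (4 and 3 at an unadjusted p under 0.05). They were 1 to 9 with 1 library left out: 4, 2, 3 and 1 without each Rxra cKO library in turn, and 9 without any wild-type library. With the replicate block they were 7, and 1 was lower. Over all genes, 3319 of 15965 were higher in the main fit and 817 at the stricter limits. DESeq2 called 2612 of 15888 higher, limma 2653 and 2590 of 15965, and the replicate block 3197 of 15965. In the same order, 3542, 1041, 2997, 2975, 2940 and 3474 were lower. Fewer of all genes were also called higher when any 1 Rxra cKO library was left out. The 1 member called lower, Cyp7b1, became 3 members with the 4 Rxra cKO libraries alone and 0 with limma at either pseudocount (1 and 0 at an unadjusted p under 0.05), and stayed 1 with DESeq2 and with any library left out. The cause was not tested. Over 15 alternatives, Tmsb15b2 was called in 15, Armcx6 and Cyp7b1 in 13, Tfap2b in 10, and the other 6 in 6 to 8. No direction reversed among the 10 called members, and A630001G21Rik, not called, kept its sign in 13.

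Members with a UMI in both cultured matrices (10) became 2 at 10 or more UMIs per matrix and 11 to 18 with 1 mouse alone. Members led by a named class were 9 at resolution 0.5 against 10. With 2 libraries a group, low counts limit what the medium test could call.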
